A study of Homo sapiens with 16 samples.

Results

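The 38 genes described here are targets and partners of ATF4, the transcription factor of the integrated stress response, together with ATF4 itself. They were listed by name as regulators, feedback genes, enzymes of serine, one-carbon and other amino acid metabolism, and amino acid transporters. All 38 were found among the 33121 entries of the count table, and 36 passed the filter on low counts that left 15569 genes for testing. RNA was measured in HAP1, a near-haploid human cell line derived from a leukaemia line that grows attached to the dish. The 16 libraries form 4 groups of 4. The first group carries a deletion of SLC30A10, which encodes a manganese exporter of the plasma membrane, and has an SLC30A10+/+ control set. In the other experiment a further gene was deleted, giving the second knockout, and its undeleted cells are the second control set. All groups were grown in the same medium with serum and without a stated treatment. The control sets share a cell line identifier, and each deletion carries an identifier of its own. The labels do not give the number of independent clones, so that a deletion and the clone that carries it cannot be told apart. They also do not say whether the 4 libraries of a group came from separate cultures, so that the p-values measure the spread between these libraries, which may be technical.

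In the integrated stress response, a set of kinases senses different stresses and phosphorylates the initiation factor eIF2. HRI (EIF2AK1) responds to a lack of haem and to mitochondrial stress, PKR (EIF2AK2) to double-stranded RNA, PERK (EIF2AK3) to unfolded protein in the endoplasmic reticulum, and GCN2 (EIF2AK4) to a shortage of amino acids. Phosphorylated eIF2 slows translation in general but raises translation of the ATF4 mRNA, whose upstream reading frames otherwise keep ribosomes from its coding sequence. ATF4 then binds DNA with partners of the C/EBP and AP-1 families and raises the mRNAs for amino acid uptake and synthesis, redox defence and, when stress lasts, cell death. These libraries measure mRNA, and not eIF2 phosphorylation or the amount of ATF4 protein.

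Library totals lay between 16058856 and 16648151 counts, and levels are given as CPM, the counts per 1000000 of the scaled library size. A floor of 3 counts was 0.181 to 0.187 CPM. SLC30A10 had 6 to 9 counts per library in its control set and 3 to 11 in its knockout, so that the deletion cannot be seen in its RNA and the group is named by its label. Of the blood cell markers, PTPRC had 0 to 2 counts and SPI1 0 to 1 count per library. CD68, the only one that was tested, had 32 to 61 counts (1.95 to 3.74 CPM). The summed level of the list was 2.25 to 4.16 CPM, most of it CD68. Of 8 fibroblast and epithelial markers, LUM had no count, while VIM had 353 to 660 CPM and KRT18 had 33.5 to 53.6 CPM. The summed level of these 8 was 413 to 423 CPM in the SLC30A10 knockout and 648 to 716 CPM in its control set. It was 544 to 700 CPM in the second knockout and 455 to 603 CPM in the second control set. Most of this sum is VIM, which fell by 0.82 ± 0.07 on the log2 scale in the SLC30A10 knockout and rose by 0.26 ± 0.07 in the second. KRT18 and KRT8 went the other way. They rose by 0.26 ± 0.06 and 0.36 ± 0.10 in the SLC30A10 knockout, and fell by 0.22 ± 0.06 and 1.35 ± 0.13 in the second. EPCAM, the other epithelial marker tested, was low at 0.245 to 1.58 CPM and did not go with them. It fell by 2.18 ± 0.34 in the SLC30A10 knockout (adjusted p = 9.43e-06) and had 0.41 ± 0.31 in the second (adjusted p = 0.428). The part of these markers in the results below was not tested.

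ATF4 with a C/EBP partner binds a composite element, here searched as the letters TGATGNAA on both strands. The promoters were the RefSeq windows of GRCh38.p14 from 250 bases before to 50 bases after an annotated start, 300 bases long. Of the 38 genes, 30 had a window in the table, and 10 of these (33.3%) had a match, against 4.46% of 27305 symbols. Counted by window, matches lay in 12 of 52 windows of the members (23.1%) and in 3.62% of all 35116 windows. The cyclic AMP response element TGACGTCA, also searched on both strands, occurred in 1 of the 30 genes (3.33%), PPP1R15A, against 2.25% of all symbols. No member had both motifs. The matches are shown because they carry the letters that ATF4 complexes are known to recognise, in members from each role. Each is printed 5′ to 3′ from the strand that reads TGATG, or TGACG, with up to 10 bases on either side and the motif in capitals.
ASNS (chr7:97872459-97872486, minus strand): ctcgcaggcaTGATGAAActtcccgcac
CHAC1 (chr15:40953252-40953279, minus strand): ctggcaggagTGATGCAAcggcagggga
CEBPG (chr19:33374061-33374088, plus strand): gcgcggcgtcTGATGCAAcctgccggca
JDP2 (chr14:75427996-75428023, plus strand): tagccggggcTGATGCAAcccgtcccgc
ATF3 (chr1:212565206-212565233, plus strand): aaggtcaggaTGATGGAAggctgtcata
MTHFD1L (chr6:150866347-150866374, plus strand): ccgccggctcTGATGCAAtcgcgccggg
SLC1A5 (chr19:46784894-46784921, minus strand): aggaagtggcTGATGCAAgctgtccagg
SLC1A4 (chr2:64989382-64989409, minus strand): cggctggagaTGATGCAAacgggagccg
SLC7A1 (chr13:29595664-29595691, minus strand): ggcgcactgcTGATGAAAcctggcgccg
SLC3A2 (chr11:62881726-62881748, minus strand): ggagcTGATGTAAggagtcctgc
PPP1R15A (chr19:48872353-48872380, plus strand): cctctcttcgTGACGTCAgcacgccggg
In CEBPG, CHAC1, JDP2, MTHFD1L, SLC1A5 and SLC1A4 the motif read TGATGCAA. In ASNS and SLC7A1 it read TGATGAAA, in ATF3 TGATGGAA and in SLC3A2 TGATGTAA. Read along the gene, the motif began 68 bases before the annotated start in ASNS, 42 before it in CEBPG and 209 before it in CHAC1. That of CHAC1 is printed above from the strand opposite to the gene. A match is a description of these letters and not evidence of binding in these cells.

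Per kilobase of exon, ATF4 was the most abundant of the members in the SLC30A10 control set, at 222 CPM per kilobase. PSAT1 followed at 135 and EIF4EBP1 at 130 CPM per kilobase. The regulators downstream of ATF4 were far lower, with CEBPG at 26.8, DDIT3 at 11.2, ATF5 at 11.1 and ATF3 at 4.23 CPM per kilobase. The order was not the same in the second control set. DDIT4 stood there at 86.0 CPM per kilobase against 24.6 in the SLC30A10 control set, and CHAC1 at 16.1 against 2.41. Of the 2 members that were not tested, NUPR1, a small stress-induced chromatin protein, had 0 to 4 counts per library. GDF15, a secreted stress hormone, had 0 to 6 counts in 14 libraries, 20 counts in library 2 of the second control set and 23 counts in library 4 of the second knockout.

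**Figure D1:**
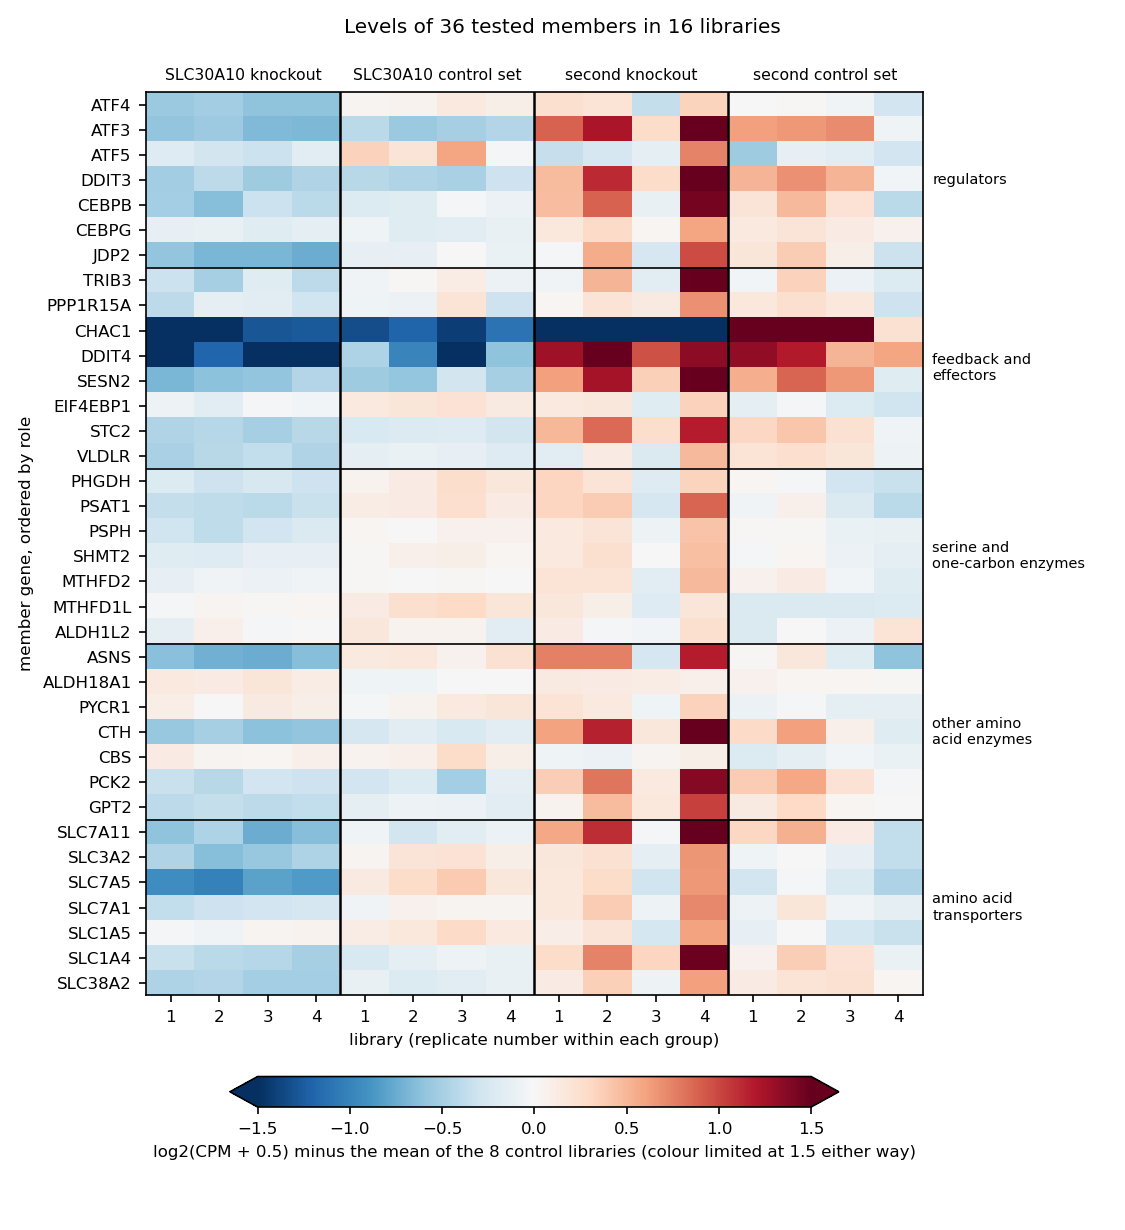
Level of each of the 36 tested members (rows, grouped by role) in each of the 16 libraries (columns, grouped by genotype), as log2(CPM + 0.5) minus the mean of the 8 control libraries (colour, limited at 1.5 either way). The SLC30A10 knockout columns are blue for most genes and alike, while the columns of the second knockout differ from each other, with library 4 the reddest, and CHAC1 is dark blue in all 4 of them.

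The first comparison asked how the mRNAs of the pathway stood after loss of the manganese exporter, in the SLC30A10 knockout against its own controls. They stood lower. Of the 36 tested members, 16 fell and 1 rose at an adjusted p under 0.05, while 20.2% of all tested genes fell and 21.2% rose. Members below 0 numbered 35 of 36, and their median log2 fold change was -0.27, against 0 over all genes. Libraries of knockout and control did not overlap for 24 members that were lower and 1 that was higher, against 18.6% and 19.7% of all tested genes. The changes were small, with 6 of the 16 falls reaching 1.5-fold and that of SLC7A5 2-fold. In bulk libraries, fewer cells that express a gene and less of its RNA per cell cannot be told apart.

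ATF4 itself, whose mRNA is made in unstressed cells too, was at 357, 366, 347 and 348 CPM in the 4 knockout libraries. It was at 542, 547, 582 and 559 CPM in the control libraries. Every knockout library lay below every control library. ATF4 fell by 0.65 ± 0.09 on the log2 scale (SE from the fit of all 16 libraries, n = 4 against 4, adjusted p = 1.01e-06). Among the other regulators, ATF5, a related factor that is itself translated under stress, fell by 0.54 ± 0.16 (adjusted p = 0.00947), and JDP2, an AP-1 family repressor, fell by 0.60 ± 0.18 (adjusted p = 0.00886). The control libraries of ATF5 were at 33.9, 30.5, 40.5 and 26.1 CPM and those of the knockout at 23.3, 21.9, 21.2 and 23.9 CPM, so that the lowest control lay close to the highest knockout library. The remaining 4 regulators did not pass the test, which shares its estimate of spread with the other experiment. Their log2 fold changes were -0.35 ± 0.22 for CEBPB, -0.14 ± 0.21 for ATF3, -0.06 ± 0.25 for DDIT3, which encodes the pro-apoptotic factor CHOP, and -0.01 ± 0.07 for CEBPG, a dimer partner of ATF4. CEBPB was nevertheless lower in every knockout library (16.3 to 20.4 CPM) than in every control library (22.2 to 25.2 CPM), while ATF3, DDIT3 and CEBPG overlapped.

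Among the 8 tested feedback genes and effectors 3 fell. DDIT4, which encodes REDD1, an inhibitor of the growth kinase complex mTORC1, was at 31.0, 39.7, 27.3 and 27.3 CPM in the knockout. The control libraries were at 66.3, 45.7, 30.7 and 60.1 CPM. DDIT4 fell by 0.69 ± 0.20 on the log2 scale (adjusted p = 0.00606), but control library 3 lay below knockout libraries 1 and 2, so the groups overlapped. EIF4EBP1, which encodes the cap-dependent translation inhibitor 4E-BP1, fell by 0.24 ± 0.07 (adjusted p = 0.00586), and VLDLR, a lipoprotein receptor, by 0.30 ± 0.11 (adjusted p = 0.0244). VLDLR was the only called member that lost its call when a library was left out, and the remaining 16 of 17 calls were made in each of the 16 fits that left 1 library out. TRIB3, a pseudokinase that dampens ATF4, had a log2 fold change of -0.35 ± 0.24, and PPP1R15A, which directs a phosphatase back to eIF2, of -0.20 ± 0.14. CHAC1, an enzyme that breaks down glutathione, had -0.21 ± 0.29. None of these 3 passed the test.

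All 3 enzymes that make serine from a glycolytic intermediate fell. PSAT1, the aminotransferase of that path, was at 207, 203, 200 and 210 CPM in the knockout and at 285, 289, 315 and 289 CPM in the control set. The groups were well apart, and PSAT1 fell by 0.52 ± 0.13 on the log2 scale (adjusted p = 0.00161). PHGDH, which catalyses the first step, fell by 0.42 ± 0.08 (adjusted p = 0.000171), and PSPH, which catalyses the last, by 0.34 ± 0.07 (adjusted p = 0.000173). Of the mitochondrial enzymes that pass the serine carbon on to folate, SHMT2 fell by 0.21 ± 0.06 and MTHFD1L by 0.20 ± 0.06. MTHFD2 had a log2 fold change of -0.09 ± 0.08 and ALDH1L2 of -0.07 ± 0.18, and neither passed. The libraries of MTHFD2 did not overlap, at 264 to 277 CPM in the knockout and 286 to 291 CPM in the control set, while those of ALDH1L2 did. PSPH and SLC7A5 have pseudogene relatives, so that their counts could include reads of a copy.

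Among the other amino acid enzymes, the changes were less alike. ASNS, asparagine synthetase and a much used reporter of GCN2 and ATF4 activity, was at 104, 97.1, 95.2 and 103 CPM in the knockout. It was at 178, 179, 167 and 188 CPM in the control set. The 4 knockout libraries were close to each other and below all controls, and ASNS fell by 0.83 ± 0.17 on the log2 scale, a 1.78-fold change (adjusted p = 0.000279). ALDH18A1, which makes the proline precursor pyrroline carboxylate, was the member that rose, by 0.18 ± 0.03 (adjusted p = 8.75e-05). Its levels were 254 to 267 CPM in the knockout and 224 to 235 CPM in the control set. PYCR1, which acts after it in proline synthesis, had a log2 fold change of -0.01 ± 0.06. CTH and CBS, the enzymes of transsulfuration, had -0.37 ± 0.21 and -0.06 ± 0.05, PCK2 had -0.06 ± 0.17 and GPT2 -0.26 ± 0.13, and none of these passed. The value of CBS is uncertain because a near-identical copy of the gene, CBSL, can share its reads.

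Of the 7 transporters 4 fell. SLC7A5, the light chain of the exchanger LAT1 that brings in leucine and other large neutral amino acids, had the largest fall of all members. It was at 205, 193, 224 and 217 CPM in the knockout and at 430, 471, 513 and 441 CPM in the control set. The groups were far apart, and the log2 fold change was -1.14 ± 0.12, a 2.21-fold fall (adjusted p = 7.67e-09). Its partner SLC3A2, the heavy chain CD98 that carries several such light chains to the surface, was at 125, 110, 116 and 124 CPM against 177, 197, 199 and 183 CPM. SLC3A2 fell by 0.67 ± 0.10 (adjusted p = 4.69e-06). SLC38A2, a sodium-coupled carrier of small neutral amino acids, fell by 0.34 ± 0.08 (adjusted p = 0.00206), and SLC7A1, the cationic amino acid carrier, by 0.33 ± 0.10 (adjusted p = 0.00803). SLC7A11, the cystine carrier, had -0.46 ± 0.22, SLC1A4 -0.29 ± 0.18 and SLC1A5, the glutamine carrier, -0.17 ± 0.10, and these 3 did not pass, although their knockout libraries all lay below their control libraries.

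The surroundings of SLC7A5 differ from those of the other members. It lies at chr16:87830023-87869507 of GRCh38.p14, and of the 10 tested genes on each side of it, from MTHFSD to PIEZO1, 19 of 20 were also below 0 in the SLC30A10 knockout. Their median log2 fold change was -0.58, with MVD at -1.11, MTHFSD at -0.87 and MAP1LC3B at -0.41. In the second knockout the same 20 genes had a median of 0.01. The 20 neighbours of ATF4 had a median of -0.01 in the SLC30A10 knockout, those of ASNS -0.05, those of SLC3A2 -0.07 and those of PSAT1 0. After SLC7A5, the median furthest from 0 was that around CTH, at -0.20. The part of this stretch of chromosome 16 in the fall of SLC7A5 was not tested.

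**Figure D2:**
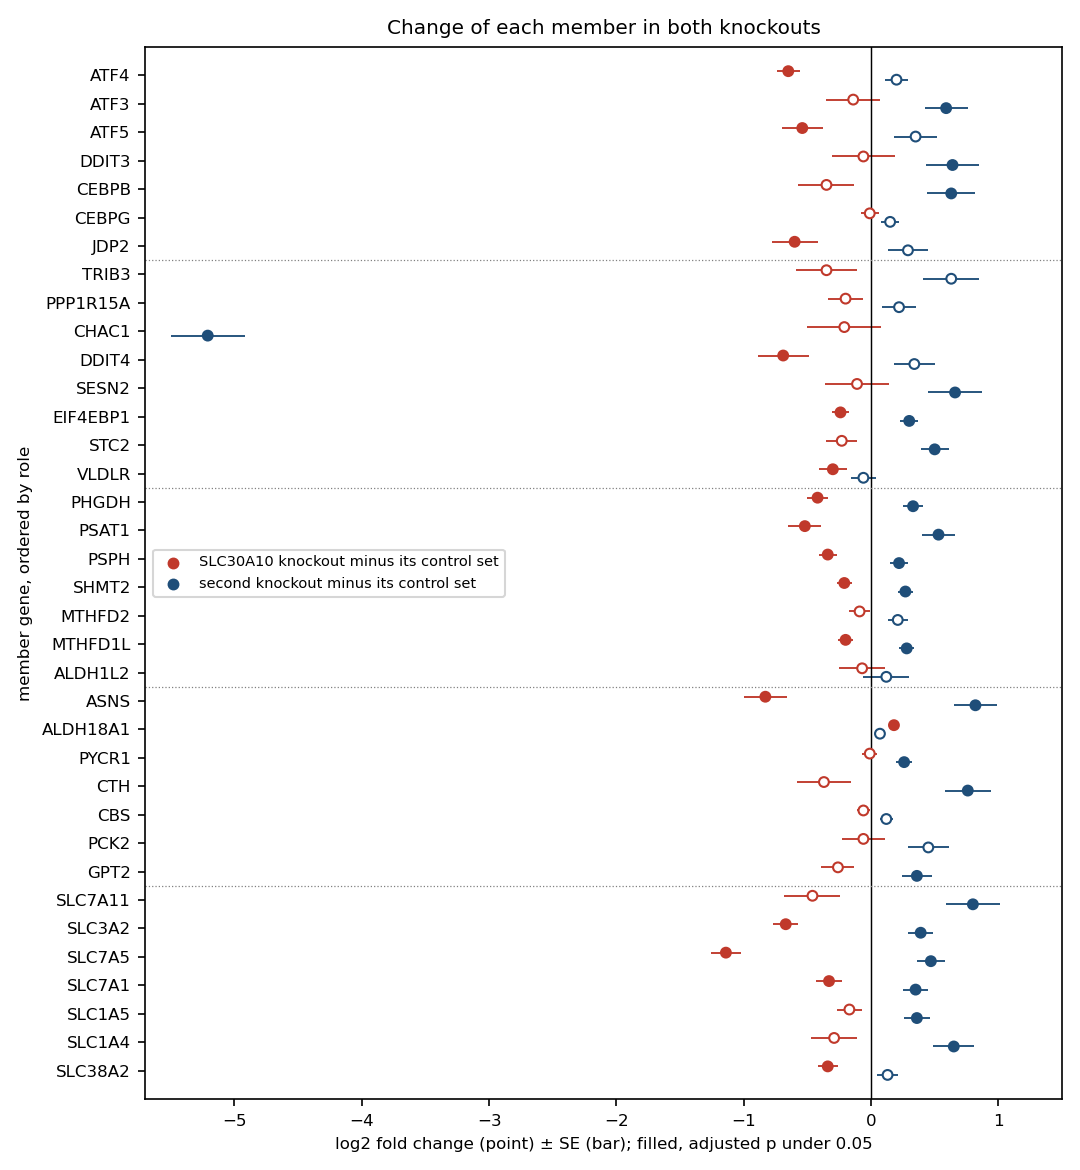
Log2 fold change (horizontal axis) with its standard error for each of the 36 tested members in the SLC30A10 knockout (red) and the second knockout (blue), each against its own control set of 4 libraries. Filled points have an adjusted p under 0.05. Red points lie to the left of 0 for 35 of 36 members and blue points to the right for 34, with CHAC1 in the second knockout at -5.21.

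The second knockout was set against its own control set in the same way, and its members stood higher, with CHAC1 as the exception. Of the 36 tested members, 21 rose and 1 fell, while 6.67% of all tested genes rose and 7.03% fell. Members above 0 numbered 34 of 36, and their median log2 fold change was 0.34, against 0 over all genes. Without library 4 of the knockout the median was 0.19, and without library 4 of the control set as well, as chosen after seeing the data, it was 0.15. Groups of libraries seldom separated, however. Only ALDH18A1 and MTHFD1L were higher, and only CHAC1 was lower, in every library of the second knockout than in every control library, against 7.6% and 8.69% of all tested genes.

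CHAC1 changed the most of all members. Its control libraries were at 37.5, 43.8, 36.3 and 14.8 CPM, or 613, 722, 603 and 243 counts. The knockout libraries were at 1.18, 0.675, 0.727 and 0.969 CPM, or 19, 11, 12 and 16 counts. The groups were far apart even at the lowest control library, number 4, and CHAC1 fell by 5.21 ± 0.29 on the log2 scale, a 37.0-fold change (adjusted p = 1.33e-13). In the SLC30A10 experiment the gene lay between these levels, at 4.69, 5.16, 4.39 and 5.55 CPM in the control set and at 3.92, 3.48, 4.84 and 4.92 CPM in the knockout. CHAC1 lies at chr15:40953471-40956512 of GRCh38.p14. Its 20 tested neighbours had a median log2 fold change of -0.04 in the second knockout. The reference sequence of the 250 bases before its start is shown because CHAC1 parted from the other members. The composite element lies on the minus strand and reads TTGCATCA in capitals on the plus strand printed here.
CHAC1 upstream (chr15:40953221-40953470, plus strand): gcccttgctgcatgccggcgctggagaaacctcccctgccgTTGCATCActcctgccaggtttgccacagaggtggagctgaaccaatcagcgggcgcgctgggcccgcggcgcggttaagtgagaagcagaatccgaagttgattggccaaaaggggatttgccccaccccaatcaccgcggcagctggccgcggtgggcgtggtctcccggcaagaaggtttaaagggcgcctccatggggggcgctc
Whether the CHAC1 sequence in these cells matches the reference was not tested.

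Among the regulators, ATF4 was at 624, 608, 410 and 666 CPM in the second knockout and at 529, 532, 509 and 433 CPM in its control set. Library 3 of the knockout was below all 4 controls and the other 3 were above them. The log2 fold change of ATF4 was 0.20 ± 0.09 and did not pass (adjusted p = 0.128). DDIT3 was at 27.4, 43.2, 23.8 and 72.9 CPM against 28.0, 31.9, 28.2 and 19.0 CPM. Knockout libraries 2 and 4 were the high ones, libraries 1 and 3 were within the range of the controls, and DDIT3 rose by 0.64 ± 0.21 on the log2 scale (adjusted p = 0.0349). CEBPB, an early partner of ATF4, rose by 0.63 ± 0.19 (adjusted p = 0.0267) and ATF3, a stress-induced repressor, by 0.59 ± 0.17 (adjusted p = 0.0177). ATF5 (0.35 ± 0.17), JDP2 (0.29 ± 0.16) and CEBPG (0.15 ± 0.07) did not pass.

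Of the feedback genes and effectors other than CHAC1, 3 rose. SESN2, a sestrin that restrains mTORC1 when leucine is short, rose by 0.66 ± 0.21 (adjusted p = 0.0367), STC2, a secreted glycoprotein, by 0.50 ± 0.11 (adjusted p = 0.00276) and EIF4EBP1 by 0.30 ± 0.07 (adjusted p = 0.00328). SESN2 was at 61.8, 95.5, 51.3 and 156 CPM against 58.7, 73.6, 63.3 and 35.3 CPM, again with library 4 highest in the knockout and lowest in the control set. TRIB3 was at 33.3, 49.5, 30.9 and 104 CPM against 33.6, 44.0, 32.5 and 30.1 CPM, and its log2 fold change of 0.63 ± 0.22 did not pass (adjusted p = 0.0582). DDIT4 (0.34 ± 0.16), PPP1R15A (0.22 ± 0.13) and VLDLR (-0.06 ± 0.10) did not pass either.

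The serine and one-carbon enzymes that fell in the SLC30A10 knockout were the 5 that rose here. PSAT1 was at 330, 344, 223 and 487 CPM against 255, 278, 227 and 200 CPM and rose by 0.53 ± 0.13 on the log2 scale (adjusted p = 0.00446). Library 3 of the knockout lay among the controls. PHGDH rose by 0.33 ± 0.08, MTHFD1L by 0.28 ± 0.06, SHMT2 by 0.27 ± 0.06 and PSPH by 0.22 ± 0.07, with adjusted p-values from 0.000902 to 0.0208. The levels of MTHFD1L did not overlap, at 89.8 to 117 CPM in the knockout and 88.2 to 89.5 CPM in the control set. MTHFD2 (0.21 ± 0.08) and ALDH1L2 (0.12 ± 0.18) did not pass.

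Of the other amino acid enzymes 4 rose. ASNS was at 270, 272, 135 and 364 CPM against 162, 181, 141 and 105 CPM, and rose by 0.82 ± 0.17 on the log2 scale (adjusted p = 0.000818). Knockout library 3 lay within the control range and the other 3 above it. CTH, which releases cysteine from cystathionine, rose by 0.76 ± 0.18 (adjusted p = 0.0044), GPT2, the mitochondrial alanine aminotransferase, by 0.36 ± 0.12 (adjusted p = 0.0411) and PYCR1 by 0.26 ± 0.06 (adjusted p = 0.00337). PCK2, the mitochondrial phosphoenolpyruvate carboxykinase, had 0.45 ± 0.16, CBS 0.12 ± 0.05 and ALDH18A1 0.07 ± 0.03, and these did not pass.

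All transporters but SLC38A2 rose. SLC7A11, which imports cystine in exchange for glutamate, was at 118, 170, 76.8 and 257 CPM against 97.2, 114, 85.8 and 60.9 CPM. It rose by 0.80 ± 0.21 on the log2 scale (adjusted p = 0.00869), with knockout library 3 inside the control range. SLC1A4, a carrier of alanine, serine and cysteine, rose by 0.65 ± 0.16 (adjusted p = 0.00551). SLC7A5 rose by 0.47 ± 0.11, SLC3A2 by 0.39 ± 0.10, SLC1A5 by 0.36 ± 0.10 and SLC7A1 by 0.35 ± 0.10, with adjusted p-values from 0.0046 to 0.0148. SLC38A2 had 0.13 ± 0.08 and did not pass (adjusted p = 0.355).

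**Figure D3:**
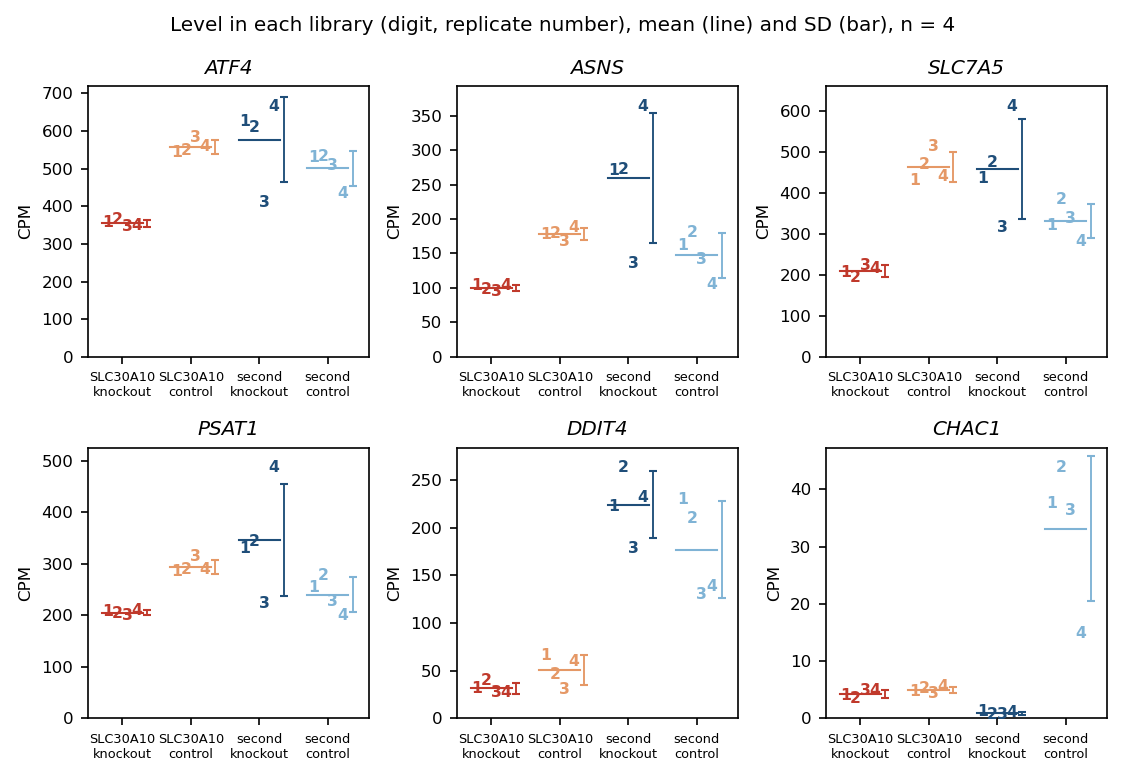
CPM (vertical axis, from 0) of 6 members in each of the 4 groups, where each digit is a library by its replicate number, the line is the mean and the bar the SD (n = 4). The SLC30A10 knockout lies below its control set without overlap except for DDIT4 and CHAC1, library 3 of the second knockout lies below libraries 1, 2 and 4 except for CHAC1, and CHAC1 is near 0 in all 4 libraries of that knockout.

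The rise in the second knockout was uneven between libraries, and the members moved together from library to library. In library 4 of the knockout, 33 of 36 members had their highest level of the 4 knockout libraries, against 24.4% of all tested genes, and the median member stood 0.43 above the group mean on the log2 scale. In library 3, 29 members had their lowest level, against 27.5% of all tested genes, and the median member stood 0.36 below. Library 4 of the second control set held the lowest level of 31 members and library 2 the highest level of 28, against 21.7% and 23.3% of all tested genes. The median SD of a member across libraries was 0.333 on the log2(CPM + 0.5) scale in the second knockout and 0.182 in its control set, where the median over all genes was 0.104 and 0.0869. In the SLC30A10 knockout and its control set the members varied less than the median gene, with 0.0566 against 0.081 and 0.0722 against 0.0978.

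The number of calls in the second knockout turned on these libraries. Without library 4 of the knockout, 12 members rose and CHAC1 fell, while 6.45% of all tested genes rose and 6.42% fell. Without library 4 of the second control set 13 rose and CHAC1 fell, against 4.84% and 5.26% of all tested genes. With both left out, an alternative chosen after seeing the data, 3 members rose. They were ASNS (log2 fold change 0.49, adjusted p = 0.0235), MTHFD1L (0.25, adjusted p = 0.0106) and SHMT2 (0.16, adjusted p = 0.0449), while CHAC1 (-5.50) and VLDLR (-0.29) fell. Of all tested genes 4.73% rose and 4.89% fell there, so these counts are near those of genes in general. Left out together, libraries 3 and 4 of the knockout gave 21 rises and 1 fall, also an alternative chosen after seeing the data. There 6.55% of all tested genes rose and 7% fell. Of the 22 calls, 13 were made in each of the 16 fits that left out 1 library. The 9 that were not were ATF3, CEBPB, DDIT3, GPT2, PSPH, SESN2, SLC1A5, SLC7A1 and SLC7A11. When only the 8 libraries of this experiment were fitted, 12 members rose and CHAC1 fell, against 5.77% and 5.63% of all tested genes. In the SLC30A10 knockout that restriction gave 25 falls and 1 rise, against 21.2% and 22.3% of all tested genes.

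**Figure D4:**
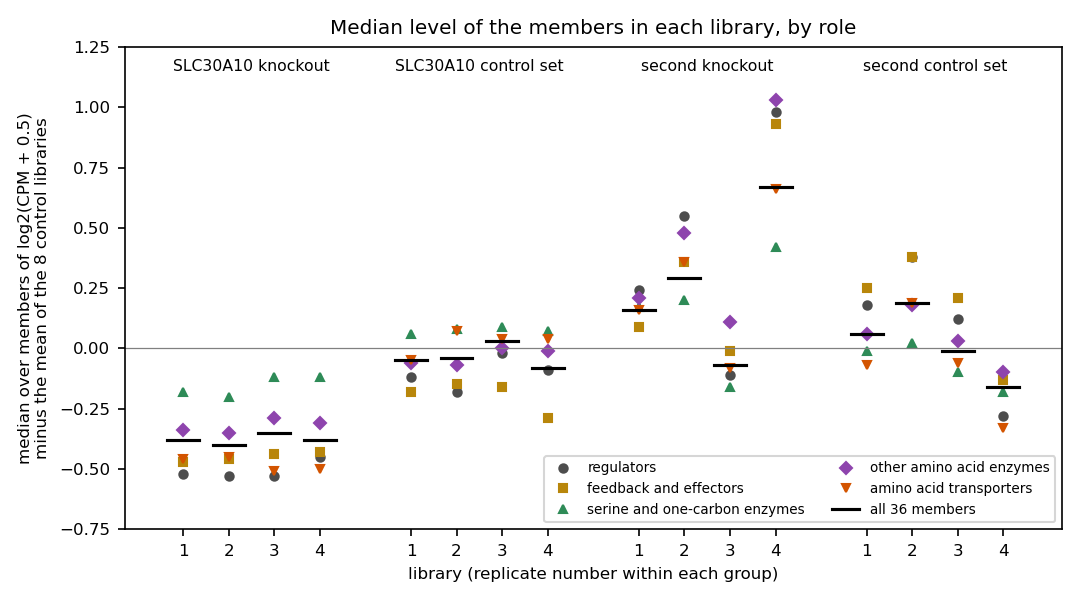
Median over the members of each role (coloured points) and over all 36 tested members (black bars) of log2(CPM + 0.5) minus the mean of the 8 control libraries, for each library. The SLC30A10 knockout libraries have overall medians from -0.40 to -0.35, while those of the second knockout are 0.16, 0.29, -0.07 and 0.67 and those of its control set 0.06, 0.19, -0.01 and -0.16.

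The plot of medians by library shows that every role shared in the high level of library 4 of the second knockout. In library 4 of that knockout the median of the other amino acid enzymes was 1.03, of the regulators 0.98, of the feedback genes and effectors 0.93, of the transporters 0.66 and of the serine and one-carbon enzymes 0.42 above the controls. CHAC1 did not stand above the controls there. Its 4 values in that knockout were -3.47 to -2.95 relative to the mean of the control libraries, while the median of the 35 other members ran from -0.07 to 0.68. CHAC1 was at 0.675 to 1.18 CPM there, close to the 0.5 added before the logarithm. Its values therefore cannot show whether it varied with the others between these 4 libraries. Within the second control set CHAC1 was lowest in library 4 and highest in library 2, like most other members.

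**Figure D5:**
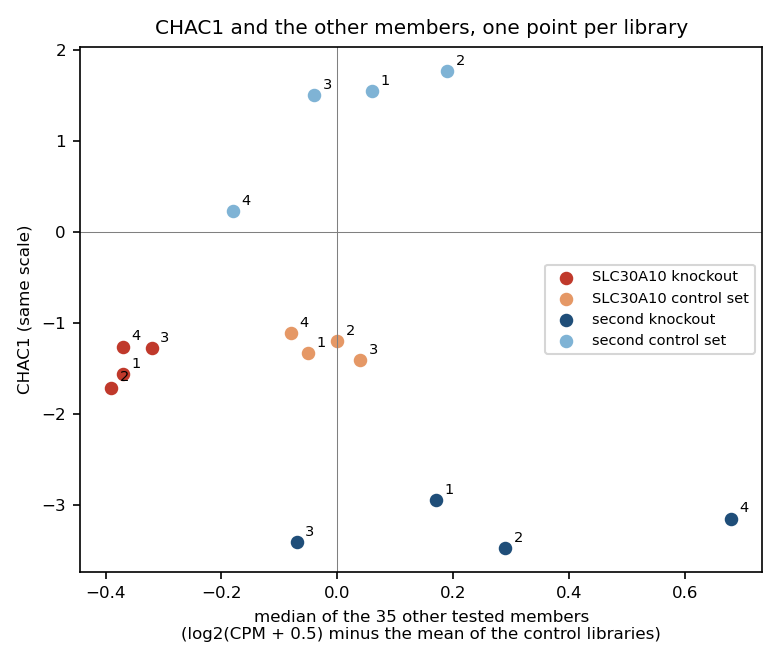
CHAC1 (vertical axis) against the median of the 35 other tested members (horizontal axis), both as log2(CPM + 0.5) minus the mean of the 8 control libraries, with a point and replicate number for each library. The 4 libraries of the second knockout lie between -3.47 and -2.95 for CHAC1, where its level is close to the 0.5 added, and the control sets lie apart from each other.

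The effects of both deletions were compared directly, as the difference of the log2 fold change in the SLC30A10 knockout minus that in the second knockout. The fit uses both control sets, so that this test includes their difference. For 27 members the difference was below 0 and for 1, CHAC1, above 0 at an adjusted p under 0.05, while 14.6% of all tested genes were below and 16.7% above. The median difference of the members was -0.69. The largest among those below 0 were ASNS at -1.65 ± 0.24 (adjusted p = 4.6e-06) and SLC7A5 at -1.62 ± 0.16 (adjusted p = 1.13e-08), followed by SLC7A11 at -1.26 ± 0.30 (adjusted p = 0.00214). ATF4 mRNA differed by -0.86 ± 0.12 (adjusted p = 4.77e-06). All 7 transporters, 6 of 7 serine and one-carbon enzymes, 5 of 7 regulators and 5 of 7 other amino acid enzymes passed in this direction. The 8 members that did not pass were DDIT3, CEBPG, PPP1R15A, SESN2, VLDLR, ALDH1L2, ALDH18A1 and PCK2. Without library 4 of the second knockout and of its control set, 22 members remained below 0 and CHAC1 above, all among the 28. Of all tested genes 13.1% were below and 14.9% above.

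Since the control sets share an identifier, their comparison gives the background between the experiments. In the SLC30A10 control set 9 members were higher and 10 lower than in the second control set, while 18.5% and 20.8% of all tested genes were. For 10 members every library of the SLC30A10 control set was the higher, and for 12 the lower, against 17.4% and 18.9% of all tested genes. The median difference of the members was -0.04. Of the feedback genes and effectors 5 of 8 were lower, led by CHAC1 (-2.74 ± 0.21, adjusted p = 1.94e-09), DDIT4 (-1.80 ± 0.18, adjusted p = 3.37e-08) and SESN2 (-1.0 ± 0.23, adjusted p = 0.0013). ATF3 (-1.0 ± 0.19) and DDIT3 (-0.88 ± 0.23) were lower among the regulators. ATF5 (0.57 ± 0.16), SLC7A5 (0.48 ± 0.11), MTHFD1L (0.43 ± 0.06) and SLC1A5 (0.35 ± 0.10) were higher.

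Some directions depended on the control set. Against the control set of the other experiment, 23 members fell and 4 rose in the SLC30A10 knockout, while 22.7% of all tested genes fell and 21.7% rose. ATF4 and its main transporter targets SLC7A5 and SLC3A2 were still among the falls, while the log2 fold changes of 6 members turned from below to above 0. These were ATF5 (0.03), EIF4EBP1 (0.10), MTHFD1L (0.23), PYCR1 (0.17), CBS (0.19) and SLC1A5 (0.18). Of these, MTHFD1L, PYCR1 and CBS passed above 0 (adjusted p = 0.0021, 0.0237 and 0.00197). ATF5, EIF4EBP1 and SLC1A5 did not (adjusted p = 0.892, 0.277 and 0.162). PYCR1, CBS and SLC1A5 had not been called against the own control set. For the second knockout, the same exchange gave 21 rises and 3 falls, while 24.4% of all tested genes rose and 23.4% fell. There ATF5 (-0.22), EIF4EBP1 (-0.04), MTHFD1L (-0.15), CBS (-0.13) and SLC7A5 (-0.01) turned to below 0 and VLDLR (0.23) to above 0. Only MTHFD1L and CBS passed after the turn (adjusted p = 0.0346 and 0.0239). ATF5, CBS and VLDLR had not been called against the own control set. Experiment and group cannot be told apart in such a comparison.

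Other genes of the pathway were taken from lists by name. Of 17 tested genes of the eIF2 kinases, their regulators and the eIF2 and eIF2B subunits, 4 rose and 1 fell in the SLC30A10 knockout, with a median log2 fold change of 0.01. Over all tested genes 21.2% rose and 20.2% fell there, so the count of rises was near that of genes in general. EIF2S3, the X-linked gene of the gamma subunit of eIF2, rose by 0.48 ± 0.03 (adjusted p = 3.52e-12) and EIF2AK4, the kinase GCN2, by 0.37 ± 0.04 (adjusted p = 1.58e-08). Of the same 17, 3 rose in the second knockout, with a median of 0, where 6.67% of all tested genes rose. Of these 3, KIAA0141, which encodes the mitochondrial stress messenger DELE1, rose by 0.22 ± 0.04 and IMPACT, an inhibitor of GCN2 activation, by 0.19 ± 0.05.

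The aminoacyl-tRNA synthetases, which load tRNAs with amino acids and are ATF4 targets too, followed the members. With XPOT, the tRNA export factor, 13 were tested. In the SLC30A10 knockout 10 fell, against 20.2% of all tested genes, with a median log2 fold change of -0.38. TARS fell by 0.53 ± 0.07 (adjusted p = 2.05e-06) and EPRS by 0.40 ± 0.06 (adjusted p = 7.43e-06). The second knockout had 8 rises, against 6.67% of all tested genes, and a median of 0.21, among them YARS by 0.32 ± 0.08 (adjusted p = 0.00365) and SARS by 0.35 ± 0.08 (adjusted p = 0.00446). Without library 4 of the second knockout and of its control set, 0 of the 13 passed there by edgeR's test, with 7 above 0 at an unadjusted p under 0.05, while 10 still fell in the SLC30A10 knockout. DESeq2 on all libraries called 8. The difference of both effects passed for 12 of 13, all below 0, against 14.6% of all tested genes. The control sets differed as well, with 10 of 13 higher in the SLC30A10 control set, against 18.5% of all tested genes, such as YARS (0.51 ± 0.08).

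Further ATF4 targets, 16 tested, had 4 rises and 3 falls in the SLC30A10 knockout and a median log2 fold change of -0.07. These counts are near the 21.2% of rises and 20.2% of falls over all tested genes. The rises were GADD45A (0.81 ± 0.12, adjusted p = 7.19e-06), KLHL24 (0.39 ± 0.12), TXNIP (0.31 ± 0.12) and HSPA9 (0.13 ± 0.05). LONP1, the mitochondrial matrix protease, fell by 0.32 ± 0.04 (adjusted p = 4.31e-07) and MAP1LC3B, an autophagosome protein, by 0.41 ± 0.04 (adjusted p = 2.24e-08). The other fall was that of FAM129A, by 0.62 ± 0.11 (adjusted p = 4.79e-05). MAP1LC3B is among the 20 neighbours of SLC7A5. Of these 16, 4 rose in the second knockout, against 6.67% of all tested genes, with ADM2, a secreted peptide hormone, at 0.80 ± 0.23 and LONP1 at 0.16 ± 0.04. Without library 4 of the knockout the 4 became 1, and DESeq2 on all libraries also called 1. Without library 4 of the control set as well, edgeR called 0, with 1 above and 2 below 0 at an unadjusted p under 0.05.

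Genes of other stress paths were counted beside these. Of 17 targets of ATF6 and XBP1, the other arms of the unfolded protein response, 9 fell and 1 rose in the SLC30A10 knockout, against 20.2% and 21.2% of all tested genes, with a median log2 fold change of -0.13. PDIA4 fell by 0.20 ± 0.04 and DNAJB9 by 0.34 ± 0.08. The second knockout had 1 rise, XBP1, by 0.39 ± 0.13, and 1 fall, DNAJB9, by 0.36 ± 0.08, against 6.67% and 7.03% of all tested genes. Of 10 targets of NRF2, the oxidative stress factor, 2 rose and 3 fell in the SLC30A10 knockout and 1 rose and 2 fell in the second. In the SLC30A10 knockout these counts are near those of all tested genes, of which 21.2% rose and 20.2% fell. In the second knockout 6.67% of all tested genes rose and 7.03% fell. NQO1, a quinone reductase, fell by 1.86 ± 0.10 in the SLC30A10 knockout and rose by 0.73 ± 0.09 in the second knockout. TALDO1 fell by 0.22 ± 0.04 in the second knockout (adjusted p = 0.000169). The subunits of the first enzyme of glutathione synthesis went opposite ways in the SLC30A10 knockout. GCLC, the catalytic subunit, fell by 0.15 ± 0.04 (adjusted p = 0.00808) and GCLM, the other subunit, rose by 0.24 ± 0.07 (adjusted p = 0.011).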

How the data were processed

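The 16 libraries hold poly-A RNA sequenced as paired reads of 100 bases on a DNA nanoball platform, per the labels' protocols. The authors deposited whole-number counts per gene symbol. HISAT2, featureCounts, DESeq2 and hg38 are named in the submitters' processing notes without a version or role, and the annotation and use of strand are not given in the sources used here. Genes overlapping on opposite strands may therefore share reads. The gene deleted in the second knockout is not reported here. No column was left unmapped.

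The fit used edgeR 4.0.16 (R 4.3.3), its expression filter (counts of at least 10, total of at least 15) and scaling by trimmed means of M-values (TMM). All 16 libraries were fitted with a mean per group, and quasi-likelihood F tests were adjusted by the Benjamini-Hochberg method over 15569 genes, with a threshold of 0.05. An SE is the log2 fold change divided by the square root of F. The 4 groups share 1 estimate of the spread of each gene. An SE or p-value therefore does not measure the spread of only the 8 libraries compared. The members varied less in the SLC30A10 knockout and its control set (median SD 0.0566 and 0.0722) than in the second knockout and its control set (0.333 and 0.182). Fitted alone, the experiments gave 26 and 13 calls, against 17 and 22 in the shared fit. Of all tested genes 43.5% and 11.4% were called alone, and 41.4% and 13.7% in the shared fit. The common biological coefficient of variation was 0.0497, and replicate pairs differed by 1.64 to 6.83 chi-square per degree of freedom, so that none was treated as a repeat. Counts carry no stated molecular identifiers, so that floors cover counting error only. The fit was tested on simulated counts in which all groups had the same spread. That simulation cannot tell how the calls fare where groups differ in spread, as they do for the members.

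Members and lists were chosen with earlier results of these data known. All members could be named, and from each other list at most 2 genes with the smallest adjusted p in each comparison. Any other gene was named only where the reading of a result turned on it. Positions and promoters come from RefSeq (GRCh38.p14), where 91.1% of tested genes had a position, and exon lengths from GENCODE. Alternatives were other scaling, DESeq2 1.42.0, other filters and thresholds, summed numbered copies, fits of the libraries compared, a replicate block, pooled or exchanged control sets and omission of libraries.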

Additional observations from a re-analysis of the deposited data

Results flagged for a closer look

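The effect of the deletion differed between the SLC30A10 knockout and the second knockout for 28 members, by the test of the difference itself (edgeR quasi-likelihood, Benjamini-Hochberg). The same test called 31.3% of all tested genes. The values are the log2 fold change in the SLC30A10 knockout minus that in the second knockout. Among the regulators they were ATF4 (-0.86), ATF3 (-0.73), ATF5 (-0.89), CEBPB (-0.98) and JDP2 (-0.90). Among the feedback genes and effectors they were TRIB3 (-0.99), DDIT4 (-1.03), EIF4EBP1 (-0.54) and STC2 (-0.73), and CHAC1 differed the other way, by 5.0. The serine and one-carbon enzymes were PHGDH (-0.75), PSAT1 (-1.05), PSPH (-0.56), SHMT2 (-0.48), MTHFD2 (-0.30) and MTHFD1L (-0.48). The other amino acid enzymes were ASNS (-1.65), PYCR1 (-0.27), CTH (-1.14), CBS (-0.18) and GPT2 (-0.62). The transporters were SLC7A11 (-1.26), SLC3A2 (-1.06), SLC7A5 (-1.62), SLC7A1 (-0.68), SLC1A5 (-0.53), SLC1A4 (-0.94) and SLC38A2 (-0.47). ATF3, CBS and MTHFD2 did not pass in at least 1 of the 16 fits that left out a library.

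A single library stood apart from the other 3 of its group in 4 of 144 groups of member levels, by the ratio of its gap to the range of the group, where 7.2 would be flagged by chance. ATF3 was low in library 4 of the second control set, at 23.0 CPM against 37.0 to 39.5 CPM (ratio 0.848). ATF5 was high in library 4 of the second knockout, at 45.0 CPM against 20.8 to 24.3 CPM (ratio 0.852). In library 3 of the SLC30A10 control set, PSAT1 was high at 315 CPM against 285 to 289 CPM (ratio 0.865) and CBS at 382 CPM against 329 to 337 CPM (ratio 0.851).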

How the results depend on the processing

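The counts of members called were 17 in the SLC30A10 knockout, 22 in the second knockout, 28 for the difference and 19 between the control sets. Of all tested genes 41.4%, 13.7%, 31.3% and 39.3% were called. By direction, 16 members fell and 1 rose in the SLC30A10 knockout, against 20.2% and 21.2% of all tested genes. Median-of-ratios scaling, library totals alone and summed numbered copies left all 4 counts as they were. DESeq2 gave 17, 15, 25 and 18, against 39%, 12.7%, 29.1% and 36.8% of all tested genes. An adjusted p under 0.01 left 14 in the second knockout, against 7.89% of all tested genes. A change of at least 1.5-fold left 6 in the SLC30A10 knockout, 9 in the second knockout and 6 between the control sets. The shares of all tested genes were 10.4%, 4.27% and 5.64%. Fits of only the 8 libraries compared gave 26 for SLC30A10 and 13 for the second knockout, against 43.5% and 11.4% of all tested genes. The control set of the other experiment gave 27 in the SLC30A10 knockout, against 44.3% of all tested genes. Leaving out libraries one by one gave 16 to 24 calls in the SLC30A10 knockout, 13 to 29 in the second knockout, 25 to 32 for the difference and 18 to 24 between the control sets. The shares of all tested genes were 36% to 42.1%, 9.99% to 15.4%, 28.3% to 32.1% and 32.1% to 40.1%. The 13 came without second knockout library 4, and 14 without second control library 4, against 12.9% and 10.1% of all tested genes. Without both, as chosen after seeing the data, 5 were called in the second knockout, against 9.62% of all tested genes. The causes of these shifts were not tested.

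With both control sets pooled, the log2 fold change turned for 3 members in the SLC30A10 knockout, of which MTHFD1L (0.01) had been called, and for 2 in the second, neither of them called. With the control set of the other experiment 6 turned in the SLC30A10 knockout, namely ATF5 (0.03), EIF4EBP1 (0.10), MTHFD1L (0.23), PYCR1 (0.17), CBS (0.19) and SLC1A5 (0.18), and 6 in the second, namely ATF5 (-0.22), EIF4EBP1 (-0.04), MTHFD1L (-0.15), CBS (-0.13), SLC7A5 (-0.01) and VLDLR (0.23). After the turn only MTHFD1L, PYCR1 and CBS passed in the SLC30A10 knockout, and only MTHFD1L and CBS in the second. Libraries of the same number did not vary together, with mean correlations across genes of -0.036 in the SLC30A10 experiment, 0.059 in the second and 0.028 between the control sets. With the number as a replicate block, the counts were 17, 21, 27 and 28, against 41.7%, 13.9%, 31.4% and 40.3% of all tested genes. The count of 28 is from the 8 control libraries alone, where 27 were called without the block, against 39.8% of all tested genes. GDF15 and NUPR1, at 0 to 23 and 0 to 4 counts per library, did not pass the filter on low counts and were read under no alternative.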
